A study of Mus musculus with 9 samples.

Results

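Chromatin accessibility at the promoters of oxidative phosphorylation genes was compared among 4 groups of mouse brain endothelial cells (ECs). The set held every gene named in the 9 annotated peak lists whose symbol starts with Nduf, Uqcr, Atp5, Cox4, Cox5, Cox6, Cox7 or Cox8, together with Sdha, Sdhb, Sdhc and Sdhd, which gave 86 of 20035 gene names. Of these, 76 encode structural subunits, 7 encode complex I assembly factors (Ndufaf1 to Ndufaf7), and 3 (Cox7a2l, Atp5s and Atp5sl) are related genes. A promoter peak was a peak that carried the gene's name and lay within 1000 bp of its transcription start site (TSS).

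Omni-ATAC-seq inserts sequencing adapters into open chromatin with the Tn5 transposase. It was run on nuclei of live ECs sorted by flow cytometry from brains of young WT Cre (n = 2), young EC-K4KO (n = 3), old WT Cre (n = 2) and old EC-K4KO mice (n = 2). WT Cre mice, labelled CdH5Cre, CdH5 CRE or CdH5CRE, carried the VE-cadherin (Cdh5) Cre driver alone. EC-K4KO mice, labelled ECK4KO or ECk4KO, carried this driver with floxed Klf4, and the study states that control and knockout groups were treated alike with tamoxifen, so the driver and the drug were common to all groups, and Klf4 is deleted only in cells where the driver is active. Nothing in the labels says that replicates came from separate mice, so p-values measure only the spread between these libraries. Every young library has the prefix A1 in its name and every old library A2, and the meaning of the prefix is not given, so age and whatever the prefix marks cannot be told apart.

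Oxidative phosphorylation is the last stage of respiration in mitochondria. Complexes I and II pass electrons from NADH and succinate to ubiquinone, complex III passes them to cytochrome c and complex IV to oxygen, while complexes I, III and IV pump protons and ATP synthase uses the gradient to make ATP. Complex I, III, IV and ATP synthase combine subunits of the mitochondrial genome with many of the nuclear genome, and complex II is wholly nuclear. Nuclear respiratory factor 1 (NRF1), ETS factors such as GABP, and YY1 are known regulators of the nuclear genes, and brain ECs are known for a high mitochondrial content.

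The upstream sequences of 8 promoters named in the results are shown. Ndufv1 and Ndufv2 differed in rank between old and young libraries, with the limits given below. Sdhb and Atp5b were among the 5 most accessible promoters, and Sdhd shares its promoter with a neighbour. Atp5k gained a peak against young WT Cre in all 3 other groups. Cox7a1 and Cox8b are tissue-restricted isoforms with and without a peak. Sequences come from the RefSeq promoter table of GRCm38.p6, run 5′ to 3′ on the gene's strand, and end 1 base before the TSS. Capitals mark matches of the motifs described at the end of the results. The stretches lie at chr19:4012756-4012955 (minus strand, Ndufv1), chr17:66101560-66101759 (minus, Ndufv2), chr4:140961071-140961270 (plus, Sdhb), chr9:50603850-50603900 (minus, Sdhd), chr10:128083107-128083306 (plus, Atp5b), chr5:108434400-108434599 (minus, Atp5k), chr7:30183971-30184170 (plus, Cox7a1) and chr7:140900447-140900646 (minus, Cox8b).
Ndufv1: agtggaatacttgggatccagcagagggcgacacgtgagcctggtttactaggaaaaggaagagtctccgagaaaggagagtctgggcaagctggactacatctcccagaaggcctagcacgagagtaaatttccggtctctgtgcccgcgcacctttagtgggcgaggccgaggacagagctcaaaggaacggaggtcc
Ndufv2: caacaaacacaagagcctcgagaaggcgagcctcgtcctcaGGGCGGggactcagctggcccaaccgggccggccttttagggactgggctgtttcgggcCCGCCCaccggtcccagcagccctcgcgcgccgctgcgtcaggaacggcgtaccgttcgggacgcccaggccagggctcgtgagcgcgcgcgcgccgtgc
Sdhb: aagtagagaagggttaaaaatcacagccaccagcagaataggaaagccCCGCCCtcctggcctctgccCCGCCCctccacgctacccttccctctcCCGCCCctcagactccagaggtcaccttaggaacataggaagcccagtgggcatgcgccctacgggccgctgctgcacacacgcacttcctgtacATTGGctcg
Sdhd: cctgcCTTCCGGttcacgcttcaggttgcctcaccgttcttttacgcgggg
Atp5b: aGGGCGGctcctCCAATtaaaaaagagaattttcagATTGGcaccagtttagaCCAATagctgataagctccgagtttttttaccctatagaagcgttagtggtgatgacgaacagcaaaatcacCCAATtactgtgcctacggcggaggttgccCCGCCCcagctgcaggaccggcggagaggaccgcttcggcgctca
Atp5k: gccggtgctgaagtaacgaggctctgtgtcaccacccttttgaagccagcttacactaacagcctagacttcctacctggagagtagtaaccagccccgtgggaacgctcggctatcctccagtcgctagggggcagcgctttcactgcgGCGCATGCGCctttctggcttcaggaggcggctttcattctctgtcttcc
Cox7a1: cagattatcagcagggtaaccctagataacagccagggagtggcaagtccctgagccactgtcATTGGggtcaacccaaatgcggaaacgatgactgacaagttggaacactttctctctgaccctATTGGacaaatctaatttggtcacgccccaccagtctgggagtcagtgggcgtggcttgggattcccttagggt
Cox8b: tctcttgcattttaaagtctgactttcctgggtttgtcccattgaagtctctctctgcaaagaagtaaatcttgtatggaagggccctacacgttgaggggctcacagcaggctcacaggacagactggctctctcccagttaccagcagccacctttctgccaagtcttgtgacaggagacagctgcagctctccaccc
The Sdhd stretch ends after 51 bases because the exons of Timm8b begin there on the opposite strand.

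The lists differed in length, which bears on every count of peaks. They held 6157 and 9598 peaks in young WT Cre, 23848 to 27992 in young EC-K4KO, 32555 and 43893 in old WT Cre, and 39079 and 45026 in old EC-K4KO. Read counts were not analysed here, so the depth is unknown and no counting interval is given. Of 15 endothelial marker genes, 7 and 8 had a promoter peak in the young WT Cre libraries, 11 to 14 in young EC-K4KO and 14 in every old library, while Erg had none. None of 10 microglia markers had a peak in any library. Pericyte and mural markers had a peak for 0 of 12 in every young library, 0 and 2 in old WT Cre and 4 and 5 in old EC-K4KO. Astrocyte markers had peaks for 0 to 3 of 8, oligodendrocyte markers for 0 to 2 of 8 and neuron markers for 0 to 4 of 8, with the highest counts in old EC-K4KO, except that oligodendrocyte markers also reached 2 in young EC-K4KO. The part of these marker peaks and of list length in the results below was not tested. Klf4 had a promoter peak in 9 of 9 libraries, which does not check the deletion, since a promoter peak can persist where exons are removed.

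Oxidative phosphorylation promoters were open more often than promoters at large in every library. Members with a promoter peak numbered 27 and 41 of 86 in young WT Cre, 56, 70 and 69 in young EC-K4KO, 71 and 73 in old WT Cre, and 69 and 73 in old EC-K4KO. The share was 39.5% ± 11.5 (SD, n = 2), 75.6% ± 9.08 (n = 3), 83.7% ± 1.64 (n = 2) and 82.6% ± 3.29 (n = 2) in that order. All gene names gave 23.2% ± 5.39, 44.8% ± 3.53, 50.8% ± 0.300 and 53.5% ± 1.55. The young WT Cre libraries were the lowest and did not overlap any other library, and young EC-K4KO overlapped old EC-K4KO but not old WT Cre. In bulk samples fewer cells of a type and less signal per cell cannot be told apart. When every list was cut to its 6157 strongest peaks, the member share was 34.3% ± 4.11 in young WT Cre, 44.6% ± 1.78 in young EC-K4KO, 44.8% ± 2.47 for old WT Cre and 43.0% ± 0 for old EC-K4KO, beside 19.4% to 23.2% of all gene names over the libraries. Young WT Cre stayed lowest at equal length, at 31.4% and 37.2% against 43.0% to 46.5% in the other 7 libraries. All gene names then gave 19.4% and 21.6% in young WT Cre and 22.8% to 23.2% in young EC-K4KO. They gave 21.4% and 22% in old WT Cre and 21.6% and 21.3% in old EC-K4KO, so young WT Cre 1 was lowest there too, while young WT Cre 2 lay among the old libraries.

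**Figure D1:**
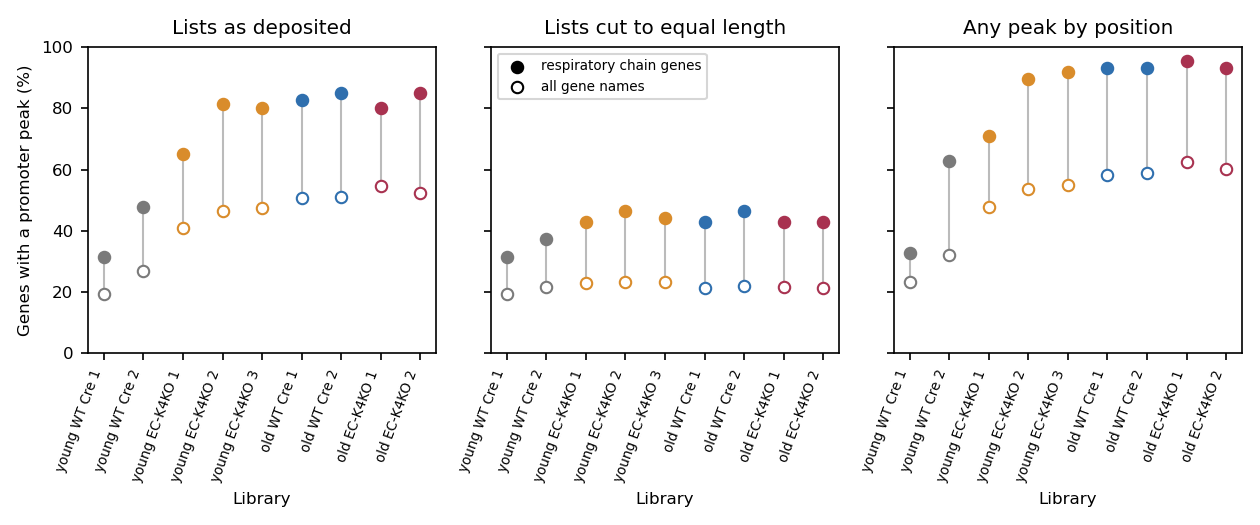
Share of genes with a promoter peak (%, vertical axis) in each of the 9 libraries (horizontal axis), for the 86 oxidative phosphorylation genes (filled points) and all gene names (open points), with lists as deposited, cut to equal length, and with any peak near the TSS counted whatever its name. Filled points lie above open points in every library, and the rise from 31.4% in young WT Cre 1 to 84.9% in old libraries shrinks to 31.4% to 46.5% at equal length.

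Member peaks sat close to the TSS. Of 549 strongest promoter peaks of members over all libraries, 495 (90.2%) were annotated as promoter-TSS, 28 as exon and 26 as intron. Their median distance from the TSS was 42 to 72 bp per library, against 103 to 117 bp for the promoter peaks of all genes. Peaks named for members but beyond 1000 bp made up 12.9% to 50.3% of their peaks, against 36.8% to 76.8% over all genes. No peak lay on the mitochondrial chromosome in any list, so the mitochondrially encoded subunits are not covered.

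Strength was described by percent rank, in which each gene's strongest promoter peak by -log10 p is placed among all genes with a promoter peak in the same list, with 0 at the strongest end. The median over members was 57.6 and 55.6 in young WT Cre, 45.2, 44.9 and 43.8 in young EC-K4KO, 39.7 and 41.1 in old WT Cre and 39.2 and 39.7 in old EC-K4KO. A longer list adds weak peaks below a gene, so this rank falls as lists grow. Among the 3265 genes with a promoter peak in all 9 libraries, whose ranks do not depend on list length, the median of the 19 members was 47.1 and 54.4 in young WT Cre, 53.5, 50.2 and 42.9 in young EC-K4KO, 51.0 and 52.9 in old WT Cre, and 54.7 and 52.3 in old EC-K4KO. These medians lay near the middle of the range in every group, and the groups overlapped. Which genes are in this common set does depend on list length, and members absent from young WT Cre are not in it.

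**Figure D2:**
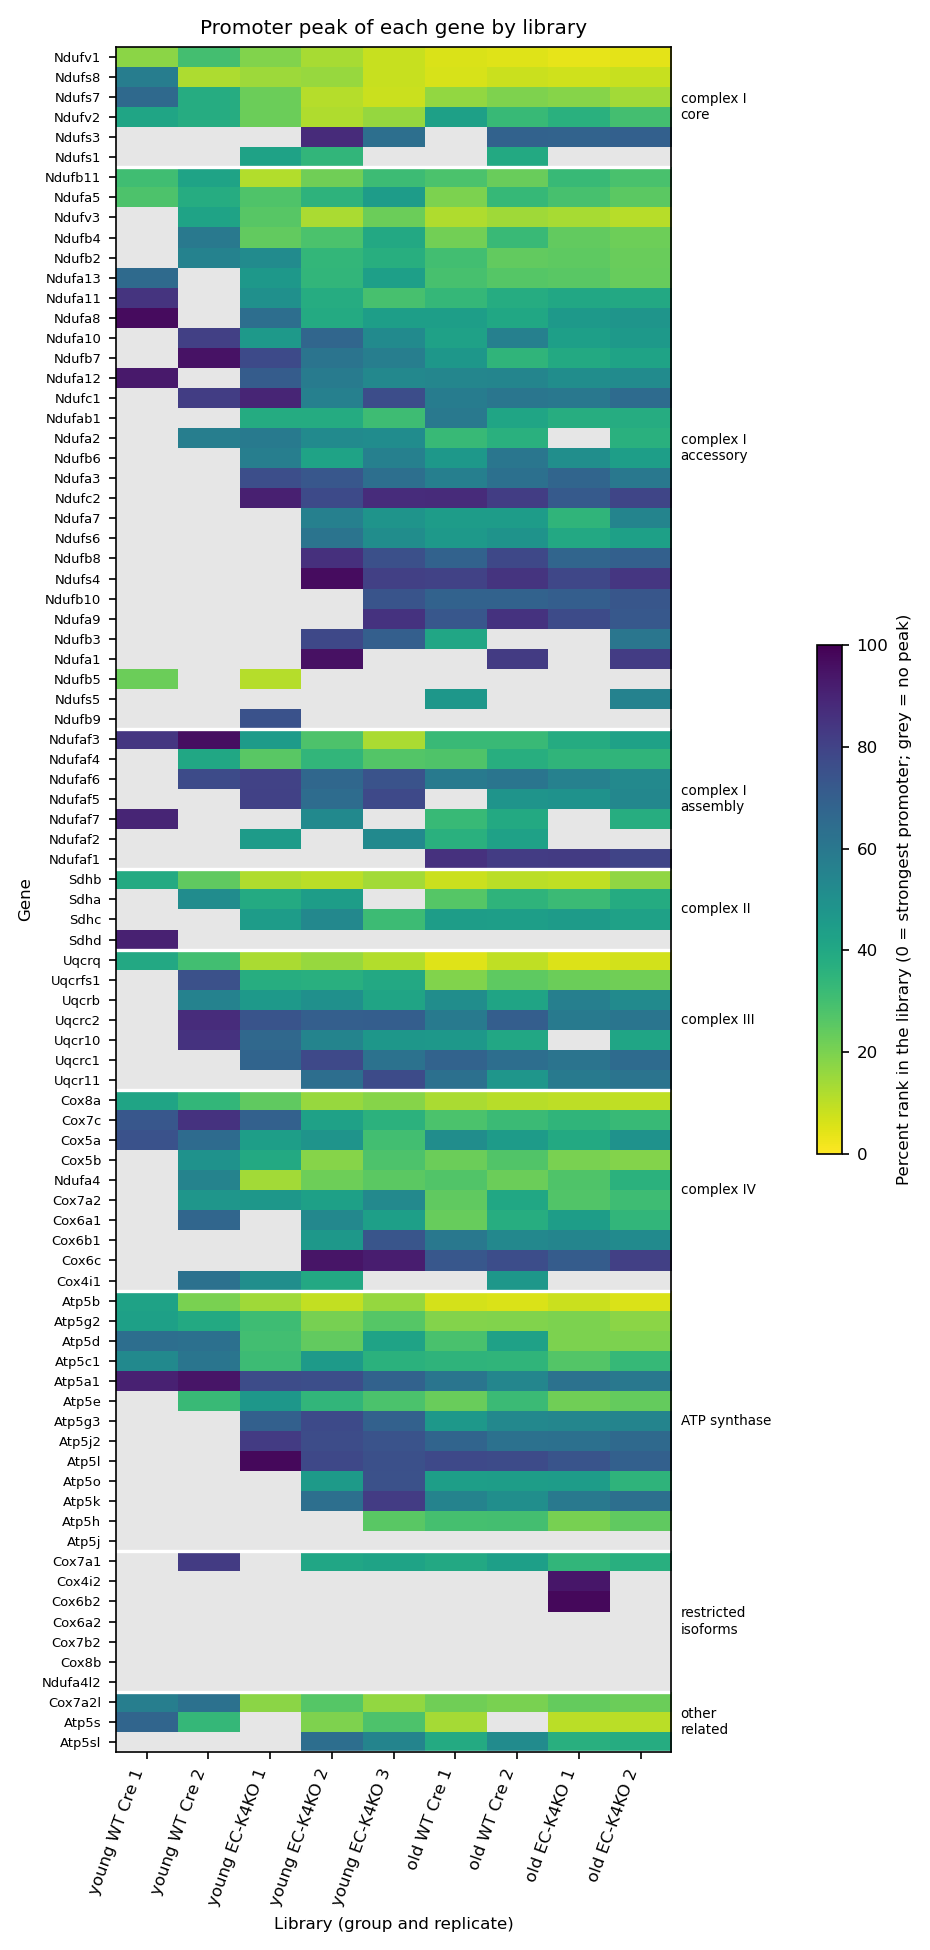
Percent rank of the strongest promoter peak of 85 of the 86 genes (rows, grouped by complex) in each of the 9 libraries (columns), where 0 (yellow) is the strongest promoter of the library and grey marks no promoter peak under the gene's name. Complex I core genes are mostly yellow to green, the restricted isoforms are mostly grey except Cox7a1, and the grey cells concentrate in the 2 young WT Cre columns.

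The 7 core subunits of complex I, the flavin and iron-sulphur proteins that carry electrons from NADH to ubiquinone, had the strongest promoters among the complexes in 8 of 9 libraries, all but young WT Cre 1, where complex III with 1 gene was lower. Their median percent rank was 37.6 to 41.3 in young WT Cre and 10.1 to 22.4 in the other libraries. Ndufv1, which binds NADH and flavin, ranked best of all 19 members present in every library, at 17.5 and 29.9 in young WT Cre, 19.0, 12.9 and 8.52 in young EC-K4KO, 5.52 and 4.69 in old WT Cre, and 3.60 and 4.22 in old EC-K4KO. Ndufs8, an iron-sulphur subunit near the ubiquinone site, stood at 57.6 and 12.2, then 14.5, 15.3 and 8.54, then 6.07 and 8.15, and then 7.27 and 8.53 in the same order. Young WT Cre 1 was the library apart for Ndufs8. Ndufs1 and Ndufs3 were the core genes without a peak in young WT Cre under their names. The Ndufs1 start lies 9 bp from that of Eef1b2, and the peak over it carried the name Eef1b2 in 5 libraries and Ndufs1 in 3. By position 5 core genes had a peak in young WT Cre 1, the same number as by name, and 6 in young WT Cre 2.

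The 28 accessory subunits of complex I, which surround the core, had fewer promoter peaks in young WT Cre than in the other groups. A promoter peak was found for 7 and 9 of them in young WT Cre, 19, 23 and 24 in young EC-K4KO, 25 and 24 in old WT Cre, and 22 and 26 in old EC-K4KO. Ndufb11 and Ndufa5 were the 2 accessory genes with a peak in all 9 libraries. Counted by position, 7 and 15 had a peak in young WT Cre, 20, 26 and 28 in young EC-K4KO and all 28 in every old library. All gene names also had fewer promoter peaks in young WT Cre, at 19.4% and 27.0% by name against 40.8% to 54.5% in the other libraries. Of the 7 assembly factors, which build complex I and are not part of it, Ndufaf3 was present in all 9 libraries. It was among the 5 weakest of those members, at 84.0 and 96.4 in young WT Cre, 45.3, 27.8 and 12.6 in young EC-K4KO, 32.4 and 32.3 in old WT Cre, and 38.3 and 42.7 in old EC-K4KO. Its 3 young EC-K4KO values were widely spread. Ndufaf1 had a peak only in the 4 old libraries, at 79.3 to 85.9.

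Complex II, which also serves the tricarboxylic acid cycle, has 4 genes. Sdhb, its iron-sulphur subunit, had a peak in all libraries, at 38.8 and 24.5 in young WT Cre, 12.1, 10.5 and 13.9 in young EC-K4KO, 8.03 and 10.2 in old WT Cre, and 9.51 and 16.7 in old EC-K4KO. Sdha, the flavoprotein, was absent from young WT Cre 1, stood at 51.5 in young WT Cre 2, 39.0 and 44.4 in young EC-K4KO 1 and 2, was absent from young EC-K4KO 3, and stood at 26.4 and 35.1 in old WT Cre and 32 and 38.4 in old EC-K4KO. Sdhc, a membrane anchor, was absent from both young WT Cre libraries and stood at 44.6, 53.2 and 31.3 in young EC-K4KO, 44.2 and 44.1 in old WT Cre, and 45.0 and 42.6 in old EC-K4KO. Sdhd, the other anchor, carried its own name only in young WT Cre 1, at 90.7. A peak nevertheless covered the Sdhd start in 9 of 9 libraries and was named Timm8b, whose start lies 52 bp away on the opposite strand, in 8 of them. By position all 4 genes had a peak in 8 of 9 libraries, all but young WT Cre 1.

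Complex III has 7 members. Uqcrq, a small subunit of the complex, was the only 1 with a peak in every library, at 39.8 and 30.1 in young WT Cre, 12.5, 15.5 and 11.6 in young EC-K4KO, 5.06 and 9.41 in old WT Cre, and 5.11 and 6.84 in old EC-K4KO. Young WT Cre 1 had a peak at no other complex III gene, while young WT Cre 2 had 5 of 7 and the other 7 libraries had 6 or 7. Uqcrfs1, the Rieske iron-sulphur protein, was absent from young WT Cre 1 and stood at 75.2 in young WT Cre 2, at 36.8 to 39.5 in young EC-K4KO and at 19.0 to 24.8 in the old libraries.

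Complex IV was represented by 10 general forms. Peaks were found for 3 and 8 of them in young WT Cre, 7, 10 and 9 in young EC-K4KO, 9 and 10 in old WT Cre, and 9 in each old EC-K4KO library. Cox8a, Cox7c and Cox5a had a peak everywhere. Cox5a stood at 74.9 and 65.0 in young WT Cre, 44.1, 48.2 and 30.1 in young EC-K4KO, 51.1 and 45.0 in old WT Cre, and 39.2 and 49.1 in old EC-K4KO. Cox7c stood at 72.9 and 85.5, then 68.9, 42.8 and 35.8, then 28.5 and 31.8, and then 34.4 and 32.5 in that order. Both were among the 5 weakest members found in all libraries. Cox4i1 carried its own name in 4 libraries, but a peak covered its start in 8, since the neighbouring start of Emc8 lies within 138 bp on the opposite strand.

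Tissue-restricted isoforms behaved apart from the general forms. Cox6a2, Cox7b2, Cox8b and Ndufa4l2 had no promoter peak in any library, by name or by position. Cox4i2, a lung form, and Cox6b2, a testis form, had a weak peak only in old EC-K4KO 1, at 93.8 and 97.7. Cox7a1, the heart and skeletal muscle form of subunit VIIa, was the exception. It was absent from young WT Cre 1 and young EC-K4KO 1, and stood at 82.7 in young WT Cre 2, 41 and 42 in young EC-K4KO 2 and 3, 39.7 and 43.5 in old WT Cre, and 34.3 and 36.8 in old EC-K4KO. The general form Cox7a2 stood at 24.5 to 52.8 in young EC-K4KO and old libraries.

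ATP synthase has 13 members here, from the F1 head that makes ATP to the membrane ring. Atp5b, the catalytic beta subunit, stood at 42.2 and 20.0 in young WT Cre, 14.2, 9.15 and 15.8 in young EC-K4KO, 6.39 and 5.56 in old WT Cre, and 7.88 and 5.58 in old EC-K4KO. Its partner Atp5a1, the alpha subunit, was the weakest of the 19 members found everywhere, at 90.9 and 94.5, then 76.6, 75.9 and 68.7, then 61.3 and 54.0, and then 62.2 and 60.0. Both subunits form the F1 head in equal number, and Atp5b ranked ahead of Atp5a1 in all 9 libraries. Atp5c1, the gamma subunit of the rotor, stood at 52.5 and 61.0, then 31.4, 45.4 and 36.3, then 35 and 34.6, and then 26.9 and 33.0. Atp5j was the only general subunit with no peak under its name in any list, and a peak named Gabpa covered its start in 9 of 9 libraries, with the Gabpa start 102 bp away on the opposite strand. Gabpa encodes the DNA-binding subunit of the ETS factor GABP.

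Shared promoters of this kind affected the names of other members too. For 21 of 86, a peak over the TSS carried another gene's name in at least 1 library, and the named gene lay on the opposite strand where both starts were in RefSeq. Ndufb5 (Mrpl47 in 7 libraries), Ndufb9 (Tatdn1 in 6) and Ndufs5 (BC002163 in 6) were affected most after Atp5j and Sdhd. Counting any peak that overlapped 1000 bp around a RefSeq start, whatever its name, gave 28 and 54 members in young WT Cre, 61, 77 and 79 in young EC-K4KO, 80 and 80 in old WT Cre, and 82 and 80 in old EC-K4KO. By this count 25 of 86 members (29.1%) were present in all libraries, beside 21.4% of 19959 gene names with a RefSeq start. By name they were 19 (22.1%), beside 16.3% of all gene names, and 5 members (5.81%) had none, beside 36.3%. A further 11 coding genes of the same name families are in RefSeq but named in no list. Peaks lay near the starts of 6 of them under other names, in 9 libraries each for Atp5mpl, Atp5pb, Ndufaf8, Ndufb1 and Uqcrh and in 8 for Atp5md.

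The question of which promoters opened relative to young WT Cre was addressed with presence patterns. A gene was present in a group if at least 2 of its libraries had a promoter peak and absent if none had. Of 86 members, 24 (27.9%) were absent from young WT Cre but present in young EC-K4KO, beside 17.4% of all gene names. For old WT Cre the count was 24 (27.9%), beside 19.8%, and for old EC-K4KO 25 (29.1%), beside 23.1%. In the other direction, 0 members had a peak in young WT Cre that young EC-K4KO, old WT Cre or old EC-K4KO lacked, beside 0.155%, 0.270% and 0.289% of gene names. Old EC-K4KO had 0 members that old WT Cre lacked, beside 1.45%, and lacked 1 that old WT Cre had, Ndufaf2, beside 0.339%. A peak named Ercc8 covered the Ndufaf2 start in 4 libraries, and by position Ndufaf2 was not lost. All 3 comparisons with young WT Cre share its 2 libraries. Without young WT Cre replicate 2 the gains became 45, 44 and 43, and without young EC-K4KO replicate 2 or 3 the first became 11. No share of all gene names is given beside these, so they show only how far the counts move. At equal list length the gains of 24, 24 and 25 fell to 4, 2 and 4, beside 2.90%, 2.39% and 2.45% of gene names.

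The 19 members present in all 3 other groups and absent from young WT Cre (22.1%, beside 15.2% of gene names) were Atp5g3, Atp5j2, Atp5k, Atp5l, Atp5o, Atp5sl, Cox6b1, Cox6c, Ndufa3, Ndufa7, Ndufab1, Ndufb6, Ndufb8, Ndufc2, Ndufs4, Ndufs6, Sdhc, Uqcr11 and Uqcrc1. By position 20 members had this pattern, beside 17.5% of positioned gene names, and 18 of them were the same, with Ndufa1 and Ndufs3 in place of Sdhc. At equal list length 0 members had it, beside 1.19%.

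The 10 with the best mean rank are given here, with Sdhc above. Ndufab1, the mitochondrial acyl carrier protein, stood at 38.3, 38.6 and 31.2 in young EC-K4KO, 59.7 and 41.1 in old WT Cre, and 37.8 and 38 in old EC-K4KO. Ndufa7 was absent from young EC-K4KO 1 and stood at 56.5 and 48.1 in the other young EC-K4KO libraries, 44.9 and 44.8 in old WT Cre, and 34.6 and 54.8 in old EC-K4KO. Ndufs6 showed the same gap and stood at 61.4 and 50.9, then 46.4 and 48.6, and then 39.5 and 43.1. Young EC-K4KO 1, the shortest list of its group, also lacked the next 4 genes. Atp5sl stood at 63.9 and 55.0 in young EC-K4KO 2 and 3, 38.7 and 51.7 in old WT Cre, and 37.1 and 38.1 in old EC-K4KO. Atp5o, the stalk subunit OSCP, stood at 45.5 and 75.3, then 43.8 and 44.3, and then 44.8 and 35.1. Both had a lower percent rank in all 4 old libraries than in either of these young ones. The old lists are longer, which by itself lowers this rank, so these values do not compare the ages. Cox6b1, a subunit facing the intermembrane space, stood at 46.8 and 73.7, then 60.1 and 53.5, and then 54.4 and 52.1. Uqcr11 stood at 64.0 and 77.0, then 63.1 and 47.5, and then 58.8 and 61.4. The remaining genes were found in all 3 young EC-K4KO libraries. Ndufb6 stood at 57.2, 42 and 56.4 in young EC-K4KO, 46.7 and 60.7 in old WT Cre, and 50.5 and 43.8 in old EC-K4KO. Atp5g3, which encodes the c subunit of the ring, stood at 69.4, 77.5 and 69.0, then 46.5 and 53.3, and then 54.2 and 54.9. Where they had a peak, these 10 genes ranked between 31.2 and 77.5.

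Gene-wise differences were tested with limma on normal scores of the rank among the 3265 genes with a promoter peak in every library. The fit held 19 of 86 members, and a positive difference means a stronger relative peak. Between old and young libraries, averaged over genotype, 3 members were called at an adjusted p under 0.05, with 2 stronger in old (beside 7.81% of all genes) and 1 weaker (beside 9.92%), or 17.7% of genes in either direction. Members were thus not called more often than genes at large. The median difference of the members was 0.170, against 0.0313 over all genes. Of the 19 members 14 were positive, but 12 when ranked by fold and 11 on centred log2 fold, and no share of positive genes is given.

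Ndufv2, an iron-sulphur core subunit of complex I (chromosome 17, TSS at 66101559, minus strand), was the member that fell. Among the common genes it stood at 44.9 and 54.4 in young WT Cre, 49.5, 30.7 and 41.7 in young EC-K4KO, 84.8 and 75.6 in old WT Cre, and 81.9 and 71.3 in old EC-K4KO. All 4 old libraries ranked it below all 5 young libraries. It fell by 0.92 on the normal-score scale (SE 0.174, limma adjusted p = 0.0069). Its deposited fold enrichment was 5.18 and 5.52 in young WT Cre, 5.69, 10 and 9.14 in young EC-K4KO, 6.63 and 8.82 in old WT Cre, and 8.87 and 9.88 in old EC-K4KO. A fold is comparable within a list only, so these values do not compare the ages. Ranked by fold, the difference was -0.43 and the call was lost. Over 14 alternatives the adjusted p ran from 0.0034 to 0.199, and the difference stayed negative in all of them.

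Ndufv1 (chromosome 19, TSS at 4012755, minus strand), whose product pairs with that of Ndufv2 in the NADH-binding module of complex I, moved the other way. It stood at 19.0 and 44.2 in young WT Cre, 42.8, 32.7 and 22.8 in young EC-K4KO, 15.6 and 13.6 in old WT Cre, and 11.2 and 12.6 in old EC-K4KO. All 4 old libraries ranked it above all 5 young libraries, and the difference was 0.63 (SE 0.192, limma adjusted p = 0.0436). Uqcrq (chromosome 11, TSS at 53430831, minus strand) stood at 43.2 and 44.4, then 28.5, 39.3 and 30.7, then 14.3 and 26.8, and then 15.7 and 20.2, also without overlap between ages, and rose by 0.58 (SE 0.160, limma adjusted p = 0.0313). Both calls were close to the threshold. The Ndufv1 call was lost in 9 of 14 alternatives, with adjusted p from 0.0121 to 0.151, and the Uqcrq call in 6, with adjusted p from 0.0312 to 0.412. Leaving out 1 library at a time gave differences of 0.44 to 0.71 for Ndufv1, 0.47 to 0.69 for Uqcrq and -1.01 to -0.78 for Ndufv2. Without young EC-K4KO replicate 2, Ndufv2 was the only member called with age, 1 of 19, beside 12.5% of genes.

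**Figure D3:**
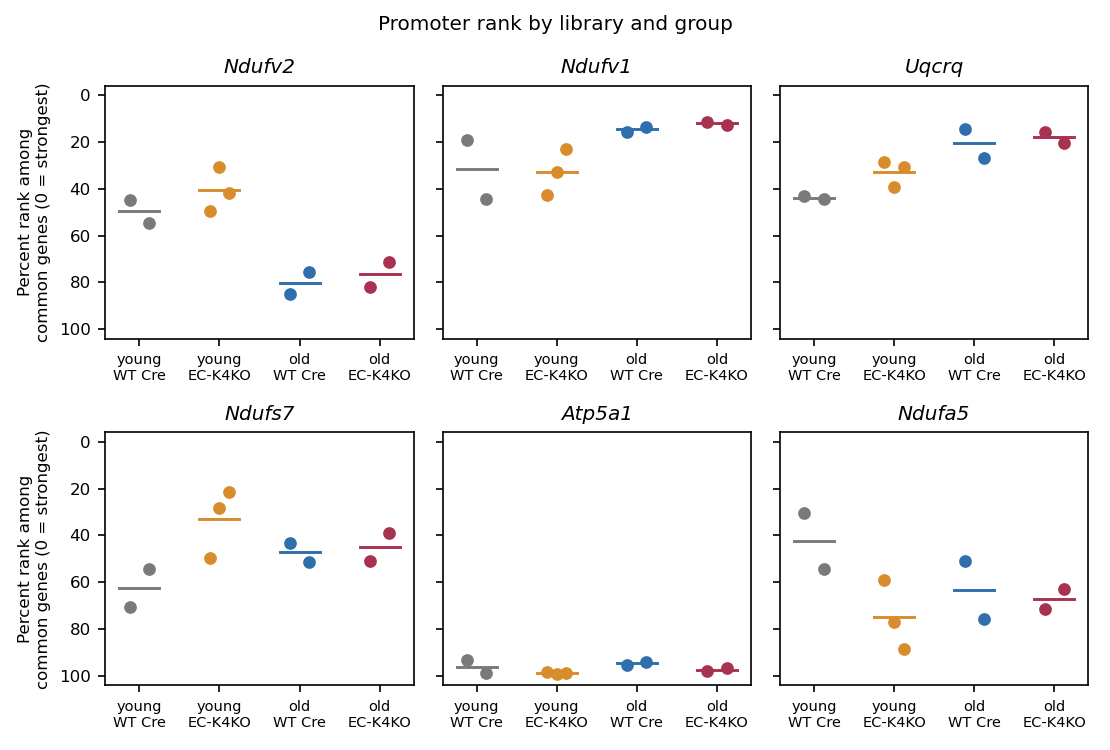
Percent rank among the 3265 common genes (vertical axis, 0 = strongest, drawn at the top) for the 3 genes called with age (upper row) and the 3 with the smallest genotype p (lower row, not called), with a point per library and a line at the group mean. For Ndufv2 the 4 old libraries lie at 71.3 to 84.8 and the 5 young ones at 30.7 to 54.4, while for Ndufv1 and Uqcrq the old libraries lie above the young.

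Within single genotypes the age result was thinner. Between old WT Cre and young WT Cre, 0 members were called by limma, beside 5.51% of genes. At an unadjusted p under 0.05 there were 4 of 19 members, beside 25.8% of genes. Fits without a young WT Cre library leave 1 in that group and hold other genes, so their counts cannot be compared with these. Between old and young EC-K4KO, 1 member was called, beside 3.25% of genes. This was Ndufv2, which fell by 0.98 (SE 0.234, limma adjusted p = 0.0468), and the call held in 3 of 14 alternatives, with adjusted p from 0.0191 to 0.448. It was lost without any 1 library except young WT Cre replicate 1 or 2.

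No member was called for genotype. Averaged over age, 0 of 19 members and 0.00% of genes passed, and 0 of 19 members had an unadjusted p under 0.05, beside 13.8% of genes. The smallest p belonged to Ndufs7, an iron-sulphur subunit of complex I, with a difference of 0.42 (SE 0.199, limma adjusted p = 0.382). It stood at 70.8 and 54.2 in young WT Cre, 49.8, 28.1 and 21.4 in young EC-K4KO, 43.4 and 51.2 in old WT Cre, and 51.0 and 39.0 in old EC-K4KO, so that the genotypes did not overlap in young but did in old libraries. Atp5a1 differed by -0.39 (SE 0.183, limma adjusted p = 0.387) and lay between 93.5 and 99.4 in all libraries. Ndufa5 differed by -0.50 (SE 0.239, limma adjusted p = 0.387), with 30.5 and 54.4 in young WT Cre, 58.9, 76.9 and 88.4 in young EC-K4KO, 51.0 and 75.9 in old WT Cre, and 71.6 and 63.0 in old EC-K4KO. In young mice alone, 0 members were called by limma, beside 2.97% of genes, with 4 of 19 members and 22.2% of genes at an unadjusted p under 0.05. Without young EC-K4KO replicate 1, 2 of 19 members were called, beside 5.01% of genes. In old mice alone 0 were called, beside 0.00%, with 0 of 19 members and 2.79% of genes at an unadjusted p under 0.05. The test of whether the genotype difference changed with age called 0 members and 0.00% of genes, and 1 of 19 members, Ndufaf3, had an unadjusted p under 0.05, beside 10.2% of genes (difference -1.92, SE 0.612, limma adjusted p = 0.379).

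**Figure D4:**
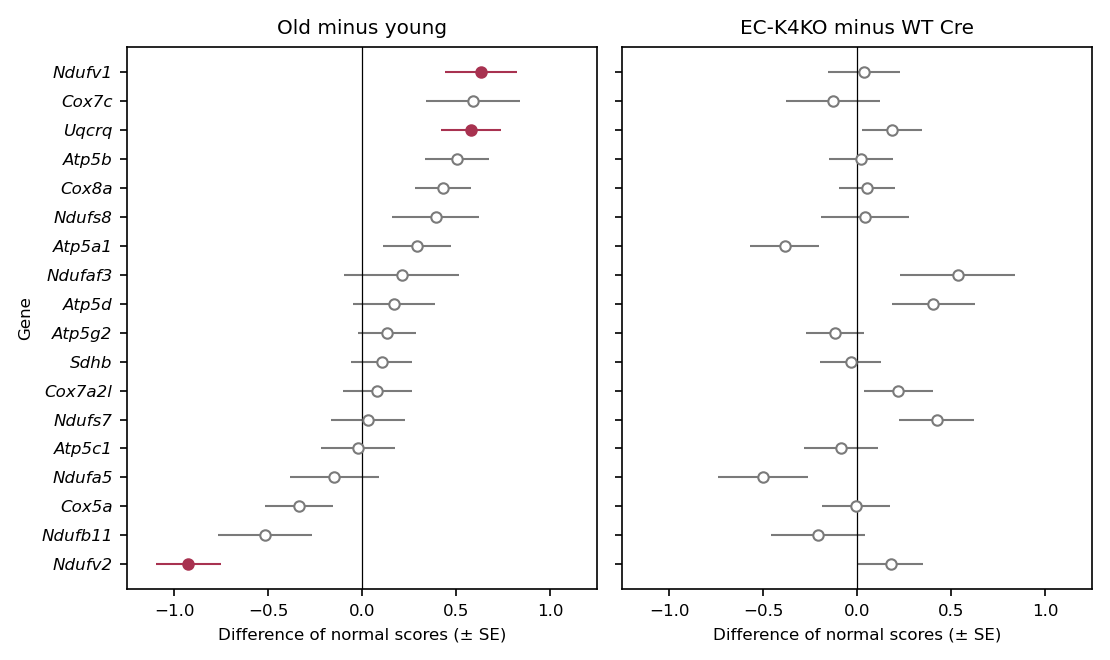
Difference of normal scores (horizontal axis, ± SE from limma) for 18 of the 19 members found in all 9 libraries (rows), old minus young on the left and EC-K4KO minus WT Cre on the right, with filled points at an adjusted p under 0.05. Ndufv1 and Uqcrq lie at 0.63 and 0.58 and Ndufv2 at -0.92 in the age comparison, and no point is filled for genotype.

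Related pathways were counted in the same way, and their counts stand beside the group means of 23.2%, 44.8%, 50.8% and 53.5% of all gene names with a promoter peak given above. Of 37 respiratory chain assembly factors outside the set, 13 to 16 had a promoter peak in young WT Cre, 23 to 28 in young EC-K4KO, 27 in each old WT Cre library and 27 to 28 in old EC-K4KO. In the limma fit 10 of them were tested, and with age 4 were called, beside 17.7% of all genes in the fit, of which Coa6, Cox14 and Lyrm7 rose and Cox20 fell. Of 16 regulators of mitochondrial biogenesis, 7 to 8 had a peak in young WT Cre and 11 to 13 elsewhere, and of 7 tested only Yy1 was called, weaker in old. Of 13 tricarboxylic acid cycle genes, 6 to 7 had a peak in young WT Cre, 10 to 12 in young EC-K4KO and 13 in every old library, and 0 of 5 tested were called with age by limma. Of 16 glycolysis genes, 7 had a peak in each young WT Cre library, 9 to 11 in young EC-K4KO and 12 in every old library, and 0 of 7 tested were called. Genotype averaged over age called 0 genes of all 4 lists.

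Promoter sequence was examined in the RefSeq table, which matched 69 of 86 members with 74 entries among 32851, each spanning 250 bases before to 50 after a TSS. Both strands were searched. The NRF1 motif GCGCATGCG occurred in 10 of 74 member entries (13.5%), against 1.75% of all entries. The ETS motif CCGGAAG occurred in 16 (21.6%), against 8.86%, and the YY1 motif AAGATGGC in 9 (12.2%), against 2.75%. These motifs can overlap, since ETS may end in the bases with which YY1 begins. The GC box GGGCGG, bound by SP and KLF factors, occurred in 32 (43.2%), against 35.7%, and the KLF-like CACCC box GGGTGNGG in 16 (21.6%), against 16.6%. CCAAT occurred in 29 (39.2%), against 37.4%, and TATAAA in 8 (10.8%), against 13.6%. The median share of G and C was 58.0% in member entries and 52.7% in all entries.

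Among the 8 stretches printed above, Atp5k held an NRF1 match on each strand, 1 base apart, Sdhd an ETS match in the bases shared with Timm8b, and Sdhb 3 GC boxes. Atp5b held 2 GC boxes and 4 CCAAT matches. Ndufv2 held 2 GC boxes, while Ndufv1 and Cox8b held no match of the 7 motifs in the printed bases, which says only that these letters are not there. Members with a promoter peak in all 9 libraries had 19 entries from 16 genes, of which 1 (5.26%) held an NRF1 match. Members with a peak in 1 to 8 libraries had 51 entries from 50 genes, of which 9 (17.6%) held it. The KLF-like box was found in 6 of 19 (31.6%) and 9 of 51 (17.6%) of these entries. Both Atp5c1 and Atp5d have more than 1 entry among the 6. These are counts of letters and not of bound sites.

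**Figure D5:**
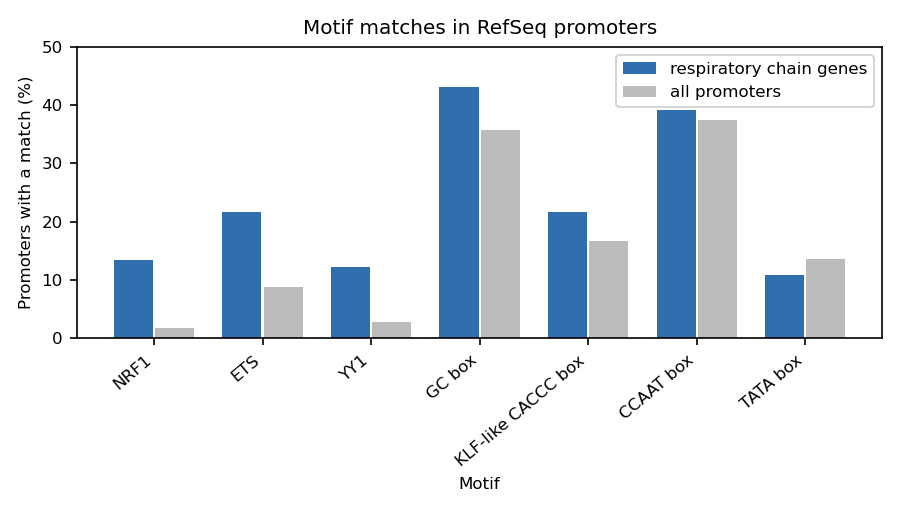
Share of RefSeq promoter entries with at least 1 match of each of 7 motifs (%, vertical axis), for the 74 entries of oxidative phosphorylation genes (blue) and all 32851 entries (grey). NRF1, ETS and YY1 matches stand at 13.5%, 21.6% and 12.2% in the genes against 1.75%, 8.86% and 2.75% in all entries, and the other motifs differ less.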

How the data were processed

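Omni-ATAC-seq peak lists of 9 libraries were analysed. According to the methods of the study and the processing notes of the submitters, the authors mapped reads with Bowtie2 to mm10 (GRCm38) and called broad peaks per library with MACS2. The deposited lists give a score, which is a whole number made from the q-value, a fold enrichment, which is a ratio over local background, and the authors' p- and q-values as -log10, for each peak. Gene names and distances to the TSS came from the deposited annotation, which has the format of HOMER's annotatePeaks. Read counts were not analysed here, so the authors' count test was not run, and a fold is comparable within a list only.

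Per gene, the promoter peak with the highest -log10 p within 1000 bp of the TSS was kept. Equal-length lists held the 6157 strongest peaks. Positions used RefSeq transcripts of GRCm38.p6. limma 3.58.1 (R 4.3.3) was fitted to all 3265 common genes in 4 groups without covariates, with Benjamini-Hochberg adjustment per contrast and a threshold of 0.05, and was tested on simulated data. No test was run over the set as a whole. Other computation used Python 3.11.15, pandas 2.3.3, numpy 2.4.6, scipy 1.17.1 and matplotlib 3.10.9. Genes given with values were those called by limma or, for genotype, the 3 smallest p, the 5 best and 5 worst mean ranks among members in all libraries, up to 10 gained members, members without a peak, complex II and restricted isoforms. Cox7a2, Ndufaf1 and Uqcrfs1 were added after their values were seen. Members and gene lists were chosen with earlier results of these data known. Alternatives covered the window (500 and 3000 bp), the q-value, list length, ranking by fold, naming by position, a replicate block and leaving out each library. Values of 1 member are not reported here, although it is part of the counts and medians.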

Additional observations from a re-analysis of the deposited data

How the results depend on the processing

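The 4 differences called by limma kept their sign under all alternatives, but the order of the groups in median percent rank did not hold. With lists cut to equal length the share of members with a promoter peak became 44.6% in young EC-K4KO, 44.8% for old WT Cre and 43.0% for old EC-K4KO, the median percent rank 60.7, 66.2 and 60.5, above the 56.8 of young WT Cre, which had the highest median as deposited (56.6), the gains against young WT Cre 4, 2 and 4, and the losses against old WT Cre 1 (Cox5a). By position the shares were 93.0% for old WT Cre and 94.2% for old EC-K4KO. A window of 3000 bp gave a share of 85.5% in old WT Cre and medians of 43.5, 39.4 and 38 in that order of groups, a window of 500 bp 46.3, 42.2 and 41.3, and ranking by fold 39.7, 36.5 and 34.5. Among genes in all 9 lists the medians were 50.8 in young WT Cre, 48.9 in young EC-K4KO, 51.9 for old WT Cre and 53.5 for old EC-K4KO, so that both old groups lay above young WT Cre. With structural subunits only they were 53.9 in young WT Cre, 41.9 for old WT Cre and 39.9 for old EC-K4KO. Presence in every library left 10 gains in young EC-K4KO, and no share of all gene names is given beside it.

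Leaving out 1 library at a time gave 11 to 45 gains in young EC-K4KO, 24 to 44 in old WT Cre and 25 to 43 in old EC-K4KO, and 0 to 1, 0 to 2 and 0 to 2 losses. Shares of all gene names are not given beside these counts. It gave 1 to 7 members called with age, 0 to 2 in young EC-K4KO against young WT Cre, 0 to 3 in old against young WT Cre and 0 to 2 in old against young EC-K4KO. The highest counts with age and in old against young, for either genotype, came from fits without a young WT Cre library. Those fits leave 1 library in that group and tested 34 or 23 members, not 19. Their counts therefore cannot be compared with the others. No share of genes is given beside these ranges, so they show only how far the counts move. Ranking by fold called 5 of 19 members with age, beside 26.6% of genes. These were Atp5a1, Cox7a2l, Cox7c, Cox8a and Ndufv1, all stronger in old, so the Ndufv2 and Uqcrq calls were lost. Centred log2 fold called 4 with age, beside 32.4%. These were Atp5a1, Cox7c, Cox8a and Ndufv1, again all stronger in old. Over all called genes 391 rose and 476 fell by fold, and 336 rose and 722 fell on centred log2 fold. Ranking by fold called 1 member in old against young WT Cre, beside 12.1%, and 0 in old against young EC-K4KO, beside 3.52%. Centred log2 fold called 1 and 0 in the latter comparisons, beside 17.3% and 6.06%. Capped lists, with absent genes tied at the bottom, called 1 of 51 in old against young WT Cre, beside 7.61% of genes. They called 2 of 51 in young EC-K4KO against young WT Cre, beside 4.35%. Of these 2, Ndufab1 was tied at the bottom in the other groups and entered the fit only through young EC-K4KO, so its call is no support. The other, Uqcrfs1, was also the capped call in old against young WT Cre. It was tied at the bottom in both young WT Cre libraries and entered the fit only through the other groups. Neither call of Uqcrfs1 is support.

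With the replicate number as a block, 0 members were called in old against young EC-K4KO and 2 with age. Over all genes the calls went from 579 to 447 with age, from 97 to 0 in young EC-K4KO against young WT Cre, from 106 to 14 in old against young EC-K4KO and from 180 to 127 in old against young WT Cre. Same-numbered libraries correlated at -0.0173 to 0.140 in their deviations from group means, with 1 of 12 pairs over 0.1. In a group of 2 the deviations mirror each other, so the pairs are not independent. Whether same-numbered libraries share more than a number cannot be told from them. Replicate 3 exists only in young EC-K4KO, so the block also sets that library aside. The unknown depth and the 2 libraries in 3 of 4 groups limit all comparisons, and the cause of these changes was not tested. Naming by position for gains and losses was chosen after seeing the data.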
